A study of Mus musculus with 14 samples.

Results

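The 9 genes Ebf1, Pax5, Pou2af1, Rag1, Vpreb1, Igll1, Cd79a, Cd79b and Blnk, which mark the B lineage from the pro-B stage on, were followed in 14 RNA sequencing libraries made from sorted cells of mouse bone marrow. They were chosen by name for their known roles and matched on the gene name in the count table, which lists 55335 genes, and 9 of 9 passed the filter on low counts. The cells were sorted as negative for lineage markers and for the blood cell surface protein CD45 and positive for TdTomato, and the labels call them bone marrow endothelium. All mice carried Cdh5 CRE Rosa26 TdTomato, in which the promoter of the endothelial cadherin gene Cdh5 drives the recombinase that switches on the red reporter.

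The groups were untreated mice (n = 4), mice given 500 cGy of total body irradiation from a caesium source (TBI, n = 5, replicates 1, 3, 4, 5 and 6), mice given 20 µCi of a non-targeting IgG as radioimmunotherapy (IgG RIT, n = 3) and mice given 20 µCi of radioimmunotherapy directed at CD45 (CD45 RIT, n = 2). Treated mice were harvested at 8 days. Age, sex and whether a library holds 1 mouse or several are not given in the sources used here, so the p-values measure the spread between these libraries, which may in part be technical. Every comparison with untreated mice shares the same 4 control libraries.

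B cells arise in the marrow from lymphoid progenitors that switch on the E protein E2A, then the transcription factor Ebf1, and then Pax5, which holds the cells to the B lineage. Pro-B cells cut and rejoin their heavy chain genes with the Rag1 and Rag2 recombinase. At the pre-B stage the new heavy chain is paired with the surrogate light chain, made of the Vpreb1 and Igll1 (lambda 5) proteins, and signals through Cd79a and Cd79b and the adaptor Blnk. Stromal cells of the marrow support this pathway with the cytokine Il7 and the chemokine Cxcl12, and such cells are also known to express Ebf1 and its relative Ebf3.

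Total counts were between 16412779 and 31077588 per library, and 3 counts, taken as the detection floor, corresponded to between 0.0785 and 0.215 CPM (counts per 1000000, on the scaled library size). The sort was checked against defining genes. Cdh5 counts were between 0 and 6 over the untreated and TBI libraries and 0 in the 5 libraries of both radioimmunotherapy groups, so the gene that defines the reporter was at or near the floor throughout. Other endothelial genes were detected. A list of 20 of them, Cdh5 included, summed to between 202 and 249 CPM of the unscaled total count in untreated libraries and 84.9 and 182 in TBI. It summed to between 75.5 and 83.6 in IgG RIT and to 97.2 and 364 in the CD45 RIT pair. Counts of Ptprc, the gene of CD45, ran from 1578 to 3273 in the untreated group, 71 to 1424 after TBI and 78 to 286 after IgG RIT, and were 1 and 662 in the CD45 RIT pair. TBI replicate 6 stood apart from the other 4 TBI libraries: a list of 13 erythroid genes summed to 176407 CPM (for list sums, of the unscaled total count) in it and to at most 44846 in the others. The CD45 RIT pair was the least alike within a group, with a correlation of log2 CPM of 0.673. In bulk libraries, fewer cells of a type and less RNA per cell cannot be told apart.

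In untreated libraries, per kilobase of gene model, the signalling and surrogate light chain genes were the highest of the 9. Cd79a stood at 116 ± 77.9 CPM per kilobase (SD, n = 4), Vpreb1 at 107 ± 70.0, Igll1 at 100 ± 60.9 and Cd79b at 92.9 ± 51.3. The ranges of these 4 overlapped. All genes come from the same libraries, so the SD does not measure the difference between genes. Within each library Cd79a lay above Igll1 and Igll1 above Cd79b, while Vpreb1 changed place. Pou2af1 followed at 19.0 ± 18.0, Blnk at 14.8 ± 7.94 and Ebf1 at 8.95 ± 5.25 CPM per kilobase, again with overlapping ranges. Blnk lay above Ebf1 within each library. Pax5 at 1.19 ± 1.04 and Rag1 at 0.857 ± 0.808 CPM per kilobase were the lowest and also overlapped in range. Pax5 lay above Rag1 within each library, in replicate 1 only just, at 0.532 and 0.531.

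The 4 promoters below are shown because they contrast a pair of genes that kept counts in every library, Vpreb1 and Igll1, with a pair that had 0 counts in both CD45 RIT libraries, Rag1 and Pou2af1. They are the 250 bases before the annotated start, from RefSeq (GRCm38.p6), written 5′ to 3′ on the gene's strand. RefSeq promoters were matched for 8 of the 9 genes. Capitals mark matches to the motifs searched on both strands: the E-box CAGGTG bound by E2A, the Ebf core CCCNNGGG, the Ikaros core TGGGAA and the octamer ATGCAAAT. No 2 matches in these windows overlap.

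Vpreb1 (chr16:16869256-16869505, minus strand): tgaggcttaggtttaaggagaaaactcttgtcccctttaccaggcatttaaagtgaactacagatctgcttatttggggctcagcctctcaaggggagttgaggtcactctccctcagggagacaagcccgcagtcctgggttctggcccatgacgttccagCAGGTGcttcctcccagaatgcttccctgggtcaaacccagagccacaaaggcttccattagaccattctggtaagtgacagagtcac
Igll1 (chr16:16863986-16864235, minus strand): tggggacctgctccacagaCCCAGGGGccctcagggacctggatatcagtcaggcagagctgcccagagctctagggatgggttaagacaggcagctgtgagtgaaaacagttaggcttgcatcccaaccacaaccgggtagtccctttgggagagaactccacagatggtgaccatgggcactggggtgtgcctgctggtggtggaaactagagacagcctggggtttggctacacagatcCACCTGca
Rag1 (chr2:101649533-101649782, minus strand): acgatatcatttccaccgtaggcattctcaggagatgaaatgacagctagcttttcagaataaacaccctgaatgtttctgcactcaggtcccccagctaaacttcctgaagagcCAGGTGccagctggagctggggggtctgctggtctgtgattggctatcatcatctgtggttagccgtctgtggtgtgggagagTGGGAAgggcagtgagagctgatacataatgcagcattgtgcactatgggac
Pou2af1 (chr9:51213440-51213689, plus strand): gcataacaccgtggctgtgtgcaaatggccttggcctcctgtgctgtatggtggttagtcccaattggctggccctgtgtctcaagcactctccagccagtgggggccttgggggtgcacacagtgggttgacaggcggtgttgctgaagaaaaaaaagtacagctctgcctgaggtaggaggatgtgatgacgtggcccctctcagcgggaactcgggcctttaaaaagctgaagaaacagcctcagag

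The E-box was found in the windows of Rag1, Cd79a, Igll1, Vpreb1 and Blnk, 5 of the 8 matched genes, and in 17.2% of all 32851 promoters of the same length. In Vpreb1 it lies 88 to 83 bases before the start, in Rag1 135 to 130, and in Igll1, as its reverse complement CACCTG, 8 to 3. The Ebf core was found in Igll1 alone of these genes, 231 to 224 bases before the start, and in 11.8% of all promoters. The Ikaros core was found in Rag1 and in 1 of the Ebf1 windows, and in 21.6% of all promoters. The octamer, the site of the Oct factors that Pou2af1 joins as a coactivator, was found in Blnk, as ATTTGCAT, and in 1.6% of all promoters. The Pou2af1 window holds none of these motifs. All 250 bases of the Blnk window are annotated as untranslated transcript sequence, and the Vpreb1 window lies within the span of Vpreb1 in the count table. These matches describe sequence and not binding.

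Ebf1, the factor that specifies the B lineage, was the only one of the 9 genes with its highest levels in the CD45 RIT libraries. It stood at 56.3, 58.1, 163 and 71.5 CPM in untreated replicates 1 to 4, and at 115, 178, 104, 169 and 12.1 CPM in TBI replicates 1, 3, 4, 5 and 6. In IgG RIT replicates 1 to 3 it stood at 16.1, 10.6 and 42.9 CPM and in the CD45 RIT pair at 327 and 375 CPM. Both CD45 RIT libraries lay above all other 12 libraries, and all 3 IgG RIT libraries lay below all untreated ones. Against IgG RIT, Ebf1 rose in CD45 RIT by 3.92 in log2 (SE 0.89; adjusted p = 0.0048, edgeR's quasi-likelihood test with Benjamini-Hochberg adjustment), a 15.1-fold ratio of mean CPM. Against untreated, the difference of 2.01 (SE 0.77) had an adjusted p of 0.0631 and was not called, although the groups did not overlap.

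Pax5, the factor that commits cells to the B lineage, was detected in 12 libraries and had 0 counts in both CD45 RIT libraries. It stood at 4.71, 5.50, 24.3 and 7.79 CPM in untreated, at 18.0, 20.1, 13.8, 18.5 and 3.52 in TBI, and at 2.08, 2.84 and 5.15 in IgG RIT. Untreated replicate 3 was the highest of its group and TBI replicate 6 the lowest of its group, and TBI, untreated and IgG RIT overlapped. Pax5 was at least 64.6-fold lower in CD45 RIT than in untreated mice (adjusted p = 0.000585), with the floor of 3 counts per library in place of 0. A stretch of 636 of its exon bases is shared with an annotated transcript on the other strand, and whether strand was used in counting is not given in the sources used here.

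Pou2af1, the B cell coactivator also known as OBF1, had the same pattern. It stood at 21.9, 14.3, 115 and 42.2 CPM in untreated, at 106, 108, 88.7, 123 and 12.3 in TBI, and at 17.8, 18.2 and 44.5 in IgG RIT, with 0 counts in both CD45 RIT libraries. Untreated replicate 3 lay within the range of the TBI libraries and TBI replicate 6 below every untreated one. The bound for CD45 RIT against untreated was at least 296-fold lower (adjusted p = 0.000738).

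Rag1, the catalytic subunit of the recombinase, stood at 3.51, 1.88, 13.6 and 3.67 CPM in untreated, at 10.4, 24.3, 12.3, 18.8 and 3.08 in TBI, and at 0.984, 0.896 and 2.10 in IgG RIT. Both CD45 RIT libraries had 0 counts, which puts Rag1 at least 34.6-fold lower than in untreated mice (adjusted p = 0.00152). All 3 IgG RIT libraries lay below all 5 TBI libraries, the only one of the 9 genes of which this held. Its partner Rag2, 5752 bases away on the same chromosome, was likewise without a count in the CD45 RIT pair, at least 108-fold lower than in untreated mice (adjusted p = 0.00831).

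Vpreb1 and Igll1, which encode the surrogate light chain and lie 4417 bases apart on chromosome 16, were detected in every library. Vpreb1 stood at 59.1, 91.9, 249.99 and 114 CPM in untreated, at 344, 407, 249.69, 440.3 and 53.4 in TBI, at 36.9, 34.2 and 84.8 in IgG RIT and at 51.4 and 17.5 in CD45 RIT. TBI replicate 6 was the lowest of its group by far, and of the other 4, replicates 1, 3 and 5 lay above the highest untreated library and replicate 4 just under it. Igll1 stood at 125, 149, 411 and 183 CPM in untreated, at 531, 622, 386, 676 and 81.4 in TBI, at 44.2, 39.4 and 162 in IgG RIT and at 62.7 and 48.7 in CD45 RIT. Both CD45 RIT libraries lay below all untreated ones for both genes, without a call at adjusted p of 0.0937 for Vpreb1 and 0.0873 for Igll1. The transcripts of Vpreb1 and its copy Vpreb2 are 96.48% identical, so how the authors' counting split reads between them is uncertain.

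Cd79a and Cd79b, the signalling chains of the pre-B and B cell receptors, ran close to the surrogate light chain genes. Cd79a stood at 85.3, 117, 336 and 136 CPM in untreated, at 352, 345, 237, 442 and 47.6 in TBI, at 35.5, 33.4 and 107 in IgG RIT and at 33.0 and 24.5 in CD45 RIT. Both CD45 RIT libraries lay below all other 12. Cd79a fell in CD45 RIT against untreated, with a log2 value of -2.55 (SE 0.86, adjusted p = 0.0379), a call that was lost without untreated replicate 3 (adjusted p = 0.0805), untreated replicate 4 (0.0514) or either CD45 RIT library (0.0702 and 0.123). Cd79b stood at 82.2, 96.5, 242 and 111 CPM in untreated, at 163, 196, 141, 249 and 30.4 in TBI, at 32.5, 23.6 and 68.5 in IgG RIT and at 30.7 and 37.8 in CD45 RIT. For Cd79b, all libraries of both radioimmunotherapy groups lay below the untreated ones, while for Cd79a the IgG RIT and untreated groups overlapped.

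Blnk, the adaptor that links the receptor to its downstream enzymes, stood at 82.1, 44.5, 156 and 72.0 CPM in untreated, at 158, 175, 137, 230.4 and 14.1 in TBI, and at 15.2, 15.9 and 36.8 in IgG RIT. The CD45 RIT pair was split, at 5.67 and 46.9 CPM. The IgG RIT libraries lay below all untreated ones, while the CD45 RIT pair overlapped the untreated group. Blnk was not called in any of the 6 comparisons.

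**Figure D1:**
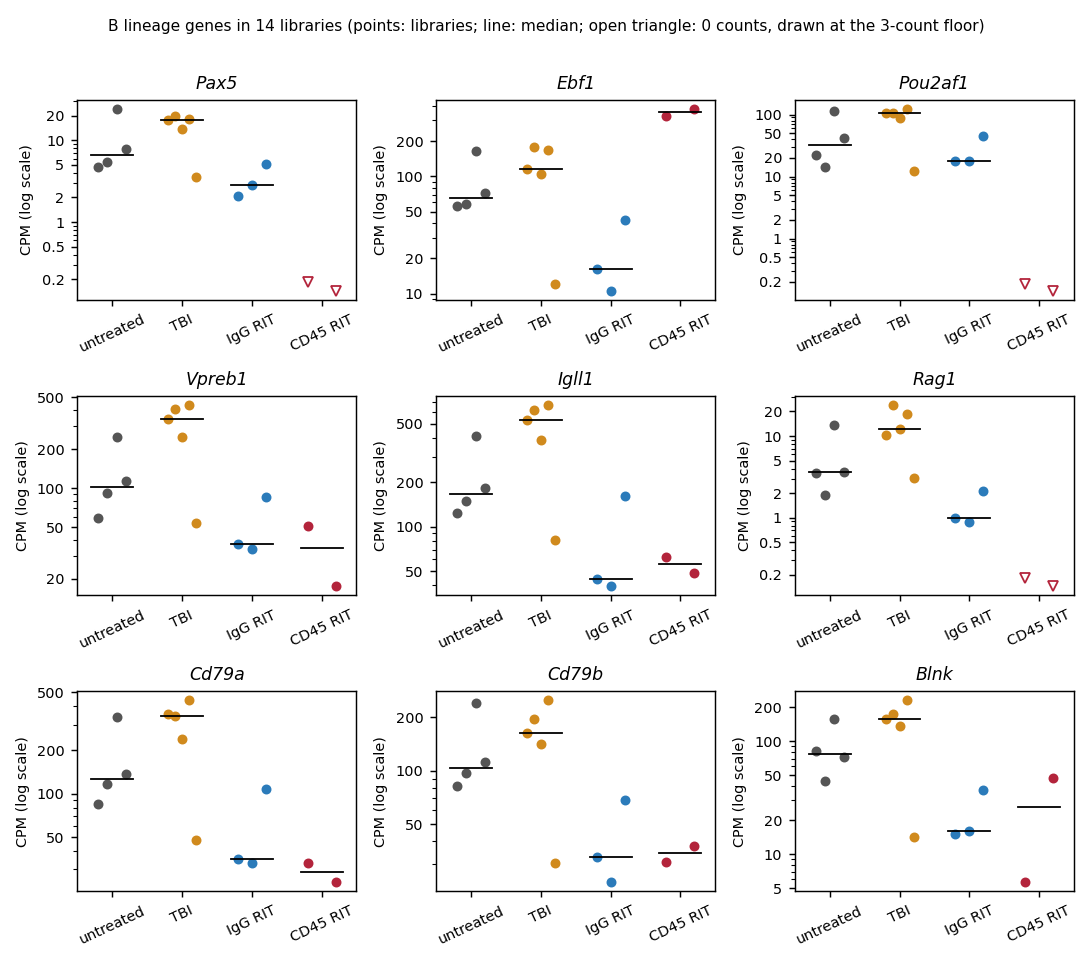
CPM on a logarithmic axis for each of the 9 genes, 1 point per library, by treatment group, with the floor of 3 counts drawn where a library had 0 counts. Pax5, Pou2af1 and Rag1 are at 0 in both CD45 RIT libraries, Ebf1 is highest there at 327 and 375 CPM, and TBI replicate 6 lies low for all 9 genes.

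TBI against untreated mice asks how external irradiation alone altered these cells by day 8. None of the 9 genes was called by edgeR's quasi-likelihood test, against 4.31% of all 21509 genes tested. DESeq2 also called 0, where 11.8% of all genes were called. The 9 log2 fold changes ran from 0.23 for Cd79b to 1.28 for Rag1 (adjusted p from 0.315 to 0.899), with a median of 0.76, where the median of all genes was -0.16. All 9 genes overlapped between the groups, where 6.34% of all genes lay wholly above and 12.8% wholly below the untreated range. Without TBI replicate 6 the values ran from 0.50 to 1.54 and 0 were called.

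Of 10 other early B stage genes, Flt3, the receptor of multipotent and lymphoid progenitors, fell by 5.71 (log2, SE 0.87, adjusted p = 0.00405) and 0 rose. It stood between 68.9 and 140 CPM in untreated libraries and between 0 and 3.11 in TBI, with no overlap. The summed list stood between 1123 and 2055 CPM in untreated libraries and between 2392 and 3730 in TBI, without overlap. Cd24a, which erythroid precursors also carry, made up between 49.95% and 56.29% of that sum in untreated libraries and between 62.58% and 98.02% in TBI. Of 4 immunoglobulin constant genes, the light chain genes Iglc1, with a change of -4.17 (SE 0.80, adjusted p = 0.0152), and Iglc2, with -5.26 (SE 1.29, adjusted p = 0.0445), fell, and Ighm and Igkc were not called. Of 12 B lineage transcription factors, 14 receptor signalling genes and 11 mature B cell genes, 0 were called in either direction.

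A proportion within the 9 genes separated the TBI libraries from the untreated and the IgG RIT libraries, but not from the CD45 RIT pair. The summed counts of Vpreb1 and Igll1 per summed count of Cd79a and Cd79b were 1.10, 1.13, 1.15 and 1.20 in untreated libraries and 1.70, 1.90, 1.68, 1.62 and 1.73 in TBI. All 5 TBI libraries, with replicate 6 among them, lay above all 4 untreated ones. The 3 IgG RIT libraries lay at 1.19, 1.29 and 1.41, and the CD45 RIT pair at 1.79 and 1.06. This ratio is free of library size, but not of the gene lengths, and is given without a test.

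Ighm, the heavy chain constant gene, differed the other way in proportion: it had between 317 and 411 counts per 100 Cd79a counts in untreated libraries and between 149 and 192 in TBI, with no overlap. Cd79b, which is in the denominator of the preceding ratio, was also lower against Cd79a: it had between 71.9 and 96.3 counts per 100 Cd79a counts in untreated libraries and between 46.2 and 63.9 in TBI, with no overlap. Pax5 did not part the same groups, at 4.68 to 7.22 counts per 100 Cd79a counts in untreated and 4.19 to 7.38 in TBI. Of the other genes set against Cd79a, Vpreb1, Igll1 and Vpreb2 were higher in TBI and Il7r and Ptprc lower, each without overlap. The rest overlapped.

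The 8 genes without Ebf1 were also set against a list of 12 genes shared by most blood cells. Per 100 counts of that list they had 17.2, 18.5, 49.6 and 23.2 counts in untreated libraries and 109, 123, 97.7, 128 and 21.3 in TBI. Of the 5 TBI libraries, 4 lay above all untreated ones and replicate 6 lay among them. The IgG RIT libraries had 24.8, 27.4 and 66.0 counts and the CD45 RIT pair 14.6 and 39.8, so that both groups overlapped the untreated range. The blood cell list itself had between 3314 and 3776 CPM in untreated libraries and between 979 and 2035 in TBI, and 0 of its 12 genes were called. The part of other blood cells in these ratios was not tested.

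**Figure D2:**
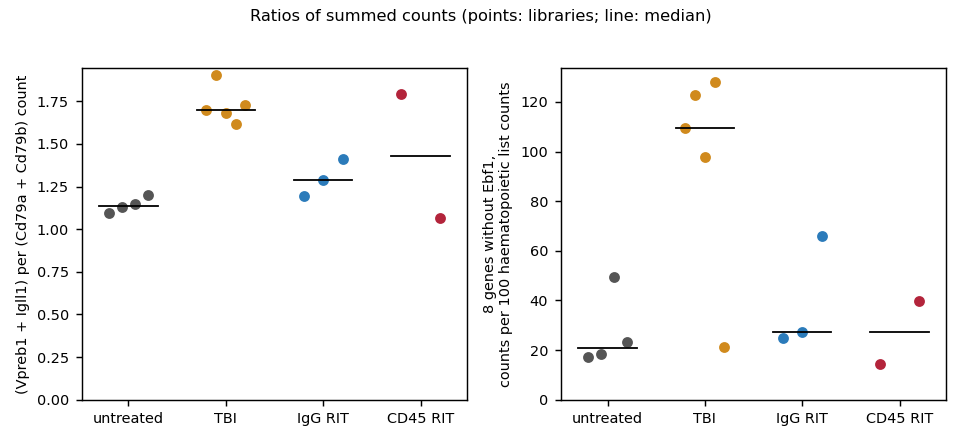
Left, summed counts of Vpreb1 and Igll1 per summed count of Cd79a and Cd79b; right, summed counts of the 8 genes without Ebf1 per 100 counts of the 12 blood cell genes, 1 point per library with the group median as a line. On the left all 5 TBI libraries, between 1.62 and 1.90, lie above the untreated ones, between 1.10 and 1.20; on the right TBI replicate 6, at 21.3, lies within the untreated range.

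IgG RIT against untreated mice asks what radioimmunotherapy without a target did. None of the 9 genes was called, against 16.4% of all genes. DESeq2 also called 0, where 28.1% of all genes were called. The log2 fold changes ran from -2.09 for Rag1 to -0.85 for Pou2af1 (adjusted p from 0.0827 to 0.498), with a median of -1.65 beside -0.42 for all genes. For Cd79b, Ebf1 and Blnk, 3 of the 9, all IgG RIT libraries lay below all untreated ones, which held for 27.4% of all genes.

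Some genes of the other B lineage lists were called, where 16.4% of all genes were called and 10.7% called lower. Among the early B stage genes Flt3 fell again, with a change of -4.53 (SE 1.03, adjusted p = 0.0123). Cd24a, a surface protein of pre-B cells that erythroid precursors also carry, rose by 2.76 (SE 0.65, adjusted p = 0.015), from between 522 and 849 CPM to between 3950 and 4705 CPM. Of 14 receptor signalling genes 2 fell, the kinase Btk with -1.62 (SE 0.44, adjusted p = 0.0271) and the scaffold Bank1. Bank1 had between 0 and 168 counts in untreated libraries and between 0 and 1 in IgG RIT. Of 12 transcription factors 2 fell, Irf8 and Pou2f2, the latter the Oct2 partner of Pou2af1, with -3.21 (SE 0.74, adjusted p = 0.013). Beside these, the erythroid list took between 134689 and 142685 CPM in IgG RIT and between 8289 and 15206 in untreated libraries, with 9 of its 13 tested genes called higher, and the blood cell list summed to between 538 and 647 CPM, with 4 of its 12 genes called lower. Their part in the result was not tested.

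IgG RIT was also compared with TBI. None of the 9 genes was called and the background was low, at 0.242% of all genes, 0.172% lower. All 9 log2 fold changes were negative, from -3.37 for Rag1 to -1.71 for Pou2af1 (adjusted p from 0.0932 to 0.284), with a median of -2.32 beside -0.16 for all genes. The count turned on 1 library: without TBI replicate 6, 8 of 9 genes were called lower, all but Pou2af1, with log2 fold changes from -3.62 to -1.99. In that fit 5.68% of all genes were called lower. With all libraries, DESeq2 called those 8 genes too, where 6.85% of all genes were called lower. Rag1, the gene without overlap here, was 1 of 8.44% of all genes that lay wholly lower. TBI replicate 6 and the 3 IgG RIT libraries were alike in the level of the erythroid list, at 176407 CPM beside 134689 to 142685. The CD45 RIT pair was split in this list, at 192341 CPM in replicate 1 and 47447 in replicate 2.

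**Figure D3:**
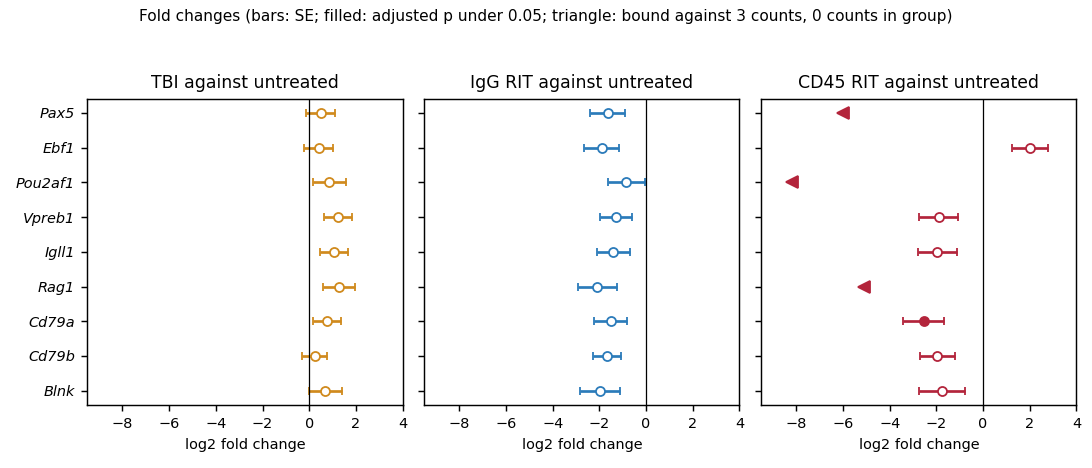
Log2 fold changes of the 9 genes with their standard errors for each treatment against untreated, filled where the adjusted p is under 0.05, and triangles for bounds of genes at 0 counts. The 9 values lie between 0.23 and 1.28 in TBI and between -2.09 and -0.85 in IgG RIT with none called, and in CD45 RIT 4 genes are called lower while Ebf1 lies at 2.01.

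CD45 RIT against untreated mice asks how these cells differed after radioimmunotherapy directed at blood cells. Of the 9 genes 4 were called lower, Pax5, Pou2af1, Rag1 and Cd79a, and 0 higher, against 33.1% of all genes called, 18.6% lower and 14.5% higher. The median log2 fold change was -1.96 beside -0.37 for all genes, and it was the same with the 3 genes at 0 set at their bounds. For 7 genes both CD45 RIT libraries lay below all untreated ones, which held for 29.8% of all genes, and for Ebf1 both lay above, which held for 17.5%. With only 2 libraries in the group, the spread rests largely on the other groups. Library numbers in the labels run with treatment: with a term for numbers of 10 or more, which rests on TBI replicate 6, Cd79a stood at 0.30 (adjusted p = 0.909) and Ebf1 at 5.56 (adjusted p = 0.00909), while Pax5, Pou2af1 and Rag1 were called lower.

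The 9 genes thus fell into 3 kinds in this pair of libraries: at 0 in both (Pax5, Pou2af1, Rag1), present but low (Vpreb1, Igll1, Cd79a, Cd79b and, unevenly, Blnk), and high (Ebf1). Ebf1 had 5.14 and 6.03 counts per summed count of Cd79a and Cd79b there, and between 0.154 and 0.336 in the other 12 libraries. Igll1 had 190 and 199 counts per 100 Cd79a counts, close to each other and above the highest value in any other library, 180.4. On the same scale other genes were less even between replicates 1 and 2. Vpreb1 had 156 and 71.4 counts, Cd79b 93.0 and 154, and Blnk 17.2 and 191.

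Neighbouring genes of the pathway were uneven between these 2 libraries. Dntt, which adds bases at the joins of rearranged receptor genes, had 0 counts in replicate 1 and 4074 in replicate 2. Vpreb2, named after its values were seen, had 479 and 28 counts, or 56.8 and 7.69 per 100 Vpreb1 counts, where the other 12 libraries lay between 13.9 and 21.5. Vpreb3, a chaperone of the pre-B receptor, was even at 469 and 606 counts.

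By list, 3 of 10 early B stage genes fell and 0 rose: Flt3, Rag2 and Il7r, the receptor of Il7, which had 1 and 0 counts against 413 to 1138 in untreated libraries. Of 12 transcription factors 8 fell and 0 rose, with a median of -3.46. Among them was Bcl11a, needed for B cell development, with 2 and 12 counts and a change of -7.71 (SE 0.68, adjusted p = 1.24e-05). Tcf3, which encodes E2A, fell, with a change of -1.40 (SE 0.33, adjusted p = 0.00681). Of 14 receptor signalling genes 7 fell and 0 rose, Btk with 2 and 0 counts among them, and the median with genes at 0 set at their bounds was -3.52. All 4 immunoglobulin constant genes fell, Ighm least, with -2.86 (SE 0.88, adjusted p = 0.0266). Several of these factors and signalling genes are also expressed by other blood cells. The blood cell list summed to between 3314 and 3776 CPM in untreated libraries and to 886 and 342 in CD45 RIT, with 9 of its 12 genes called lower. The neutrophil list summed to at least 10285 CPM in untreated libraries and to 5.23 and 14.6 in CD45 RIT. The part of other blood cells in these falls was not tested.

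Of 6 tested B niche factors 3 rose and 1 fell. Il7 stood between 2.06 and 13.8 CPM in untreated libraries and at 285 and 206 in CD45 RIT, higher by 5.10 in log2 (SE 0.96, adjusted p = 0.00195). Cxcl12 stood between 693 and 1638 CPM and at 24845 and 26836, a change of 4.52 (SE 0.65, adjusted p = 0.000344). Vcam1, the adhesion molecule of marrow stroma, changed by 5.34 (SE 0.75, adjusted p = 0.000297). The gene that fell was Tslp, at 0 counts in CD45 RIT.

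Ebf1 was high in CD45 RIT together with a list of 13 stromal markers. All 13 were called higher than in untreated mice, and the list summed to 21839 and 39020 CPM, against 2421 to 7017 in untreated, 854 to 2068 in TBI and 226 to 980 in IgG RIT. Ebf3, the related stromal factor, stood between 9.07 and 16.1 CPM in untreated libraries and at 126 and 113 in CD45 RIT, higher by 3.41 in log2 (SE 0.92, adjusted p = 0.0141). In TBI Ebf3 fell, with -3.41 (SE 0.79, adjusted p = 0.0303), where Ebf1 was not called. Untreated replicate 3 had the highest Ebf1 of its group, 163 CPM, and the lowest stromal sum, 2421 CPM, while in IgG RIT replicate 2 was lowest in both, at 10.6 and 226 CPM. The part of stromal cells in the Ebf1 level was not tested.

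**Figure D4:**
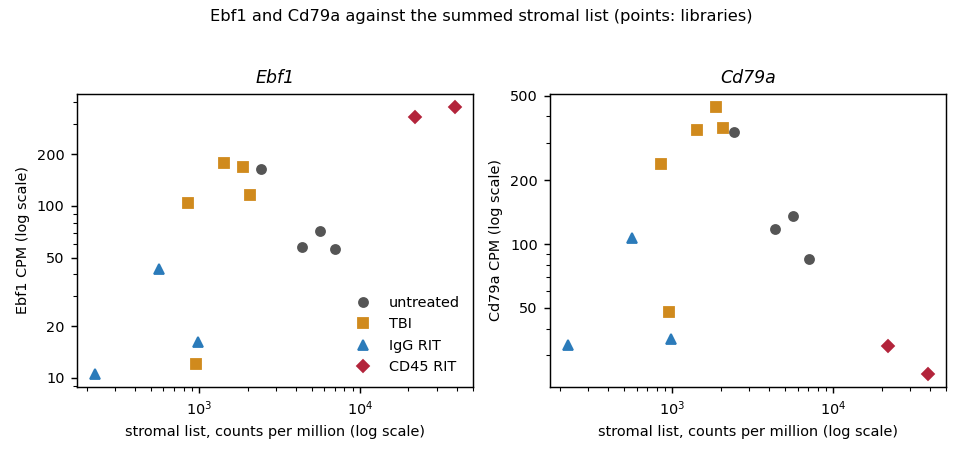
Ebf1 (left) and Cd79a (right), in CPM, against the summed level of the 13 stromal genes in CPM of the unscaled total, both axes logarithmic, 1 point per library coloured by group. The 2 CD45 RIT libraries lie apart, with stromal sums of 21839 and 39020 CPM and Ebf1 at 327 and 375 CPM, while the other 12 spread over Ebf1 levels from 10.6 to 178 CPM at stromal sums of at most 7017, and Cd79a is lowest in the CD45 RIT pair at 33.0 and 24.5 CPM.

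Lists of other cells that carry some of these genes were read beside them. The T cell list of 13 genes summed to between 22.2 and 56.6 CPM in untreated libraries and to 0.82 and 7.29 in CD45 RIT. The plasma cell list summed to between 225 and 423 in untreated and to 635 and 806 in CD45 RIT, where Xbp1 and Sdc1, which other cells also express, rose and Mzb1 had 0 counts. The mature B list summed to between 169 and 377 in untreated, 58.9 and 278 in TBI, and 25.04 and 83.2 in IgG RIT, and to 128 and 14.8 in the split CD45 RIT pair.

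CD45 RIT against TBI gave the most calls among the 9. All but Blnk and Ebf1 fell, 7 of 9, against 38.6% of all genes called and 19.0% called lower. Igll1 changed by -3.04 (SE 0.88, adjusted p = 0.0168), Vpreb1 by -3.12 (SE 0.88, adjusted p = 0.0149), Cd79a by -3.31 (SE 0.89, adjusted p = 0.0116) and Cd79b by -2.19 (SE 0.73, adjusted p = 0.033). The genes at 0 were at least 536-fold (Pou2af1), 90.5-fold (Pax5) and 84.2-fold (Rag1) lower. The median was -3.12 beside -0.39 for all genes. With the term for library numbers, 3 genes were called lower and Ebf1 higher, where 21% of all genes were called, 10.8% lower. For 6 genes both CD45 RIT libraries lay below all TBI ones, as for 27.6% of all genes, and for Ebf1 both lay above, as for 18.2%.

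CD45 RIT against IgG RIT compares both forms of radioimmunotherapy at 1 activity. Of the 9 genes, Ebf1 rose and Pax5, Pou2af1 and Rag1 fell, 4 calls against 37.7% of all genes, of which 20.2% were higher and 17.5% lower. Groups parted without overlap for Ebf1 upward (21.7% of all genes) and for 4 genes downward (29.6%). The bounds were at least 20.5-fold lower for Pax5, 164-fold for Pou2af1 and 8.12-fold for Rag1. The 5 genes of the receptor and its adaptor were not called: their log2 fold changes ran from -1.03 (SE 0.82, Cd79a) to 0.22 (SE 0.95, Blnk). Standard errors of this size leave room for a difference of several fold in either direction.

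Across all 14 libraries, the genes whose log2 CPM ran most like each of the 9 were found by Pearson correlation, as a description of libraries that share treatment, depth and cell makeup. Predicted or unconfirmed genes, pseudogenes, genes below the filter and the 9 genes themselves were left out of this ranking. Vpreb3 ran most like Cd79a (r = 0.976), Cd79b (0.985) and Igll1 (0.985), and Trp53i11 most like Vpreb1 (0.953). Prkcb, a kinase of B cell receptor signalling, ran most like Pax5 (0.992), followed by Siglecg, and Tspan13 most like Pou2af1 (0.982). Mzb1 ran most like Rag1 (0.974) and Fbxl14 most like Blnk (0.947). Ebf1 had another set of neighbours, Evl (0.966), Uchl1 (0.956) and Arid5a (0.952), and its correlation with Pou2af1 was -0.30. The mean of the 9 genes ran most like the heavy chain joining segment Ighj1 (0.968).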

How the data were processed

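Gene expression was measured in 14 libraries made from sorted marrow cells with a full-length cDNA kit for low input and tagmentation, without molecular identifiers, per the labels' protocols. The authors deposited whole-number counts per gene for 55335 genes. The submitters' processing notes name STAR 2.7.7a, FastQC 0.11.9 and edgeR 3.36.0, and a human build, hg38, although the libraries are from mouse. The counter and its use of strand are not given in the sources used here. Coordinates matched GENCODE M21 (GRCm38) for 54587 identifiers, and 54587 of these had the same position and strand. Per sample, 0 columns were left unassigned.

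Counts were fitted in R 4.3.3 with edgeR 4.0.16 (TMM factors; filterByExpr with a minimum count of 10 and a minimum total of 15, which left 21509 genes; glmQLFit with robust estimates and glmQLFTest, all groups in 1 fit). Benjamini-Hochberg adjustment ran over all tested genes in each of 6 comparisons, with calls at an adjusted p under 0.05. Standard errors were taken as the log2 fold change over the root of F. CPM are counts per 1000000, of the total count for list sums and of the scaled library size for single genes. Bounds and floors use 3 counts per library and cover counting error only. The fit was tested on simulated counts. Alternatives were RLE factors, no factors, no filter, DESeq2 1.42.0, 2 groups per fit, a replicate block, leaving out each library, and, chosen after seeing the data, a term for library numbers of 10 or more and the joint removal of 2 libraries. The 9 genes and the lists were chosen with earlier results of these data known. All 9 genes are named; from the other B lineage and niche lists, genes past the threshold or among the 4 of highest mean CPM may be named with values, and genes of other marrow cells are given as sums and counts. Vpreb2 falls outside this rule and was named after its values were seen. For each of the 9 genes the nearest of 3 other genes by correlation is named.

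The libraries of 1 group were compared pairwise, and the closest pair, TBI replicates 3 and 5, differed by a chi-square of 16.3 per gene, far above sampling noise. This cannot tell separate mice from separate preparations of the same cells. Each library was taken as 1 sample.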

Additional observations from a re-analysis of the deposited data

Results flagged for a closer look

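Untreated replicate 3 lay apart from the other 3 untreated libraries for 3 of the 9 genes, by the gap to its nearest neighbour over the range of the group. Pax5 stood at 24.3 CPM there, next to 7.79 CPM, with a gap of 0.842 of the range. Ebf1 stood at 163 CPM, next to 71.5, with a gap of 0.858, and Rag1 at 13.6 CPM, next to 3.67, with a gap of 0.847. Each gap is above Dixon's 95% critical value for 4 libraries. Of 18 groups of 4 or 5 libraries examined, 3 were past it, where chance gives about 1 in 20, and the 3 are not independent since they come from 1 library. TBI replicate 6 was the lowest of its group for all 9 genes without passing that value.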

How the results depend on the processing

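No alternative changed the CD45 RIT against IgG RIT count of 4 genes. In that comparison 12.9% of all genes were called with only the 2 groups in the fit and 47.3% with DESeq2. The other counts follow, with the share of all genes called in brackets. CD45 RIT counts, counts of 0 and those with libraries left out are given without that share. For TBI against untreated, 2 genes were called higher (Vpreb1, log2 fold change 2.03, adjusted p = 0.0464, and Rag1, 2.44, adjusted p = 0.0498) with both untreated replicate 3 and TBI replicate 6 left out, and 0 in every other setting. These 2 libraries were chosen after seeing that they were the highest and the lowest of their groups for these same genes, so the 2 calls are not independent support. For IgG RIT against untreated, 2 were called without scaling factors (23.5%), 1 with only the 2 groups in the fit (35.8%) and 4 with the replicate block (9.59%). With each library left out 0 were called. For CD45 RIT against untreated, 7 were called without scaling factors (all lower) and 7 with the block (6 lower, Ebf1 higher), 6 with DESeq2 or with both libraries left out, and 3 to 4 with each library left out; Ebf1 was called with RLE factors (2.27, adjusted p = 0.0373), over a range of adjusted p of 0.00262 to 0.213. For IgG RIT against TBI, DESeq2 called 8 (10.8%), the fit of only the 2 groups 1 (4.72%) and the block 2 (0.33%). With both libraries left out 9 were called, and with each left out 0 to 8. For CD45 RIT against TBI, 5 to 8 were called with each library left out, 9 with both libraries left out, 8 with the block and 4 with the library number term (Ebf1 higher in these 3 settings), 8 with DESeq2 or without scaling factors and 6 with only the 2 groups in the fit.

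The term for library numbers of 10 or more rests on TBI replicate 6, the only TBI library so numbered: all radioimmunotherapy libraries are numbered above it and all untreated ones below. The labels do not call the number a batch, and number and treatment cannot be told apart. With it, IgG RIT against untreated reversed for Pou2af1 (2.26), Cd79a (1.33), Cd79b (0.94), Vpreb1 (1.44), Igll1 (1.36), Pax5 (0.67), Ebf1 (1.64), Rag1 (0.32) and Blnk (1.66). CD45 RIT against untreated reversed for Cd79a (0.30), Cd79b (0.67), Vpreb1 (0.85), Igll1 (0.80) and Blnk (1.88). IgG RIT against TBI reversed for Pou2af1 (1.12), Cd79a (0.30), Cd79b (0.45), Igll1 (0.010), Ebf1 (0.94) and Blnk (0.68), and CD45 RIT against TBI for Cd79b (0.17) and Blnk (0.90). Other reversals were of uncalled values near 0 or in small groups: Cd79b in TBI without TBI replicate 5 (-0.0023), Pou2af1 in IgG RIT against untreated without untreated replicate 3 or with both libraries left out (0.038 in each), and, in CD45 RIT against IgG RIT, Cd79b (0.23) and Igll1 (0.19) with the block, Cd79b (0.29) and Igll1 (0.41) without IgG RIT replicate 3, and Blnk without IgG RIT replicate 1 (-0.0032) or CD45 RIT replicate 2 (-2.22). Over each library left out, these values ran from -0.0023 to 0.69, from -1.42 to 0.038, from -0.65 to 0.29 (Cd79b), from -0.89 to 0.41 (Igll1) and from -2.22 to 1.04 (Blnk). The cause was not tested.

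Replicate numbers did not pair the libraries: over 13 pairs of libraries with the same number, the correlation of deviations from the group means ran from -0.09 to 0.14, with 1 above 0.1. Scaling moved the median of all genes, in CD45 RIT against untreated from -0.37 to -0.13 with RLE factors and to -1.08 without factors, and the share of called genes that were higher from 43.8% to 52.8% and 22.7%; in IgG RIT against untreated that share was 35.0%, 46.7% and 14.5%, in IgG RIT against TBI 28.8%, 27.3% and 11.3%, and in CD45 RIT against TBI 50.9%, 54.9% and 33.5%. The median of the 9 genes relative to all genes stayed at -1.59 in CD45 RIT and between -1.25 and -1.23 in IgG RIT, and no gene of the 9 reversed under either scaling.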
